A study of Danio rerio with 15 samples.

Results

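Wildtype zebrafish embryos were compared between 4.5 and 4 hours post fertilization (hpf), the late blastula interval that ends near dome stage, when the blastoderm starts to spread over the yolk. The comparison used 4 of the 15 libraries of the series, all from whole dechorionated embryos with the genotype given as wildtype: 2 libraries at 4.5 hpf and 2 at 4 hpf. The members were chosen by their stage and genotype labels. At each stage 1 wildtype library was named as the control of the lines Tgnup133 and MZnup133 (called here the nup133 set) and the other as the control of Melys (the elys set). The libraries were paired within a set, and values below give the nup133 set before the elys set. The other lines had 1 library per stage each: Tgnup133, labelled as transgenic overexpression of nup133, MZnup133, labelled as a nup133 knockout, and Melys, labelled as an elys knockout. Neither the promoter of the transgene, nor the alleles, the embryos pooled per library or the clutches are stated in the labels, so p-values measure only the spread between libraries. That spread, and each SE below, came from the wildtype libraries of 3, 4 and 4.5 hpf together, not from the 4 compared libraries alone.

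The egg supplies the early embryo with messenger RNA and protein. The embryo's own genome is then switched on while maternal transcripts are cleared, and the first cell populations are set apart. The enveloping layer is the flat outer epithelium of the blastoderm and is known for its keratins. The yolk syncytial layer is a shared cytoplasm at the yolk surface that exports lipid and sends inducing signals. Nodal, BMP, FGF and Wnt ligands pattern the remaining blastoderm into mesoderm, endoderm and ectoderm along the dorsal and ventral sides.

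Levels are FPKM, a fragment count corrected for transcript length and for the size of the library, as the authors deposited them, so the read depth behind a value is unknown. The libraries were made from poly(A) RNA, and a level therefore reflects synthesis, loss and tail length together. The sum of FPKM was 573270.2 and 551438.4 at 4.5 hpf, against 543244.7 and 538627.8 at 4 hpf, and 12849 and 13010 genes had at least 1 FPKM at 4.5 hpf, against 13004 and 12976 at 4 hpf. Transcripts encoded in mitochondria took 10.2% of the sum in the nup133 set library of 4.5 hpf and 8.58% to 8.75% in the other 3 libraries. Of 10 markers of differentiated tissues measured, 0 were at 1 FPKM or more in all 4 libraries. Those listed at 0 throughout included gata1a (blood), myod1 (muscle) and neurod1 (neurons). Others were not: the globin gene hbbe1.1 had 2.55 and 0 FPKM at 4.5 hpf, against 0 and 1.265 FPKM at 4 hpf. The insulin gene ins had 0 and 0 FPKM at 4.5 hpf, against 1.49 and 7.10 FPKM at 4 hpf. The neuronal gene elavl3 had 2.05 and 2.81 FPKM at 4.5 hpf, against 2.203 and 0.754 FPKM at 4 hpf, and no marker of differentiated tissues exceeded 7.10 FPKM. The 6 germ cell markers were at 1 FPKM or more in all 4 libraries, with summed levels of 336 and 375 FPKM at 4.5 hpf, against 349 and 491 FPKM at 4 hpf. Neither targeted pore gene passed the test in wildtype: nup133 had 11.7 and 11.6 FPKM at 4.5 hpf, against 13.1 and 11.6 FPKM at 4 hpf, and ahctf1, which encodes Elys, had 19.1 and 19.5 FPKM at 4.5 hpf, against 28.2 and 26.8 FPKM at 4 hpf (adjusted p = 0.85 and 0.0899, limma). In MZnup133, nup133 was at 0.208 FPKM at 4.5 hpf and listed at 0 at 4 hpf. In the libraries labelled Melys, ahctf1 was at 24.1 FPKM at 4.5 hpf, above both wildtype libraries, and 25.8 FPKM at 4 hpf, below both. It was not lost, so its RNA does not check that label.

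Between 4 and 4.5 hpf, keratin genes of the enveloping layer and regulators of the yolk syncytial layer, endoderm and mesoderm were among the genes that rose, and genes of the oocyte and germ plasm were among those that fell. Of 13493 genes tested, 238 (1.76%) rose and 436 (3.23%) fell, at an adjusted p of at most 0.05 in limma on log2(FPKM + 1). The calls of each gene list below are to be read against these shares. The median change was 1.75 on the log2 scale among genes that rose and -1.15 among genes that fell. Changes of at least 1 log2 in both pairs were seen for 445 genes upward (3.30%) and 458 downward (3.39%). All differences are of log2(FPKM + 1), 4.5 hpf minus 4 hpf, which understates the change of low genes.

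The calls lay just inside the threshold. The adjusted p of the 674 genes ranged from 0.0459 to 0.0499, while 4093 genes (30.3%) had an unadjusted p of at most 0.05, and leaving out any of the 6 wildtype libraries left 0 genes past the threshold, with 2127 to 3729 genes at an unadjusted p of at most 0.05. The median over all genes was -0.15 on the log2 scale, and scaling the libraries by median ratios moved it to 0.03 and the split to 399 higher and 251 lower, so small differences are best read against that shift. All 674 genes moved the same way in both pairs, as 9578 of all 13493 genes tested did, and kept their direction under that scaling. The calls were made on these same pairs, which favours such agreement, so it is not separate support.

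**Figure D1:**
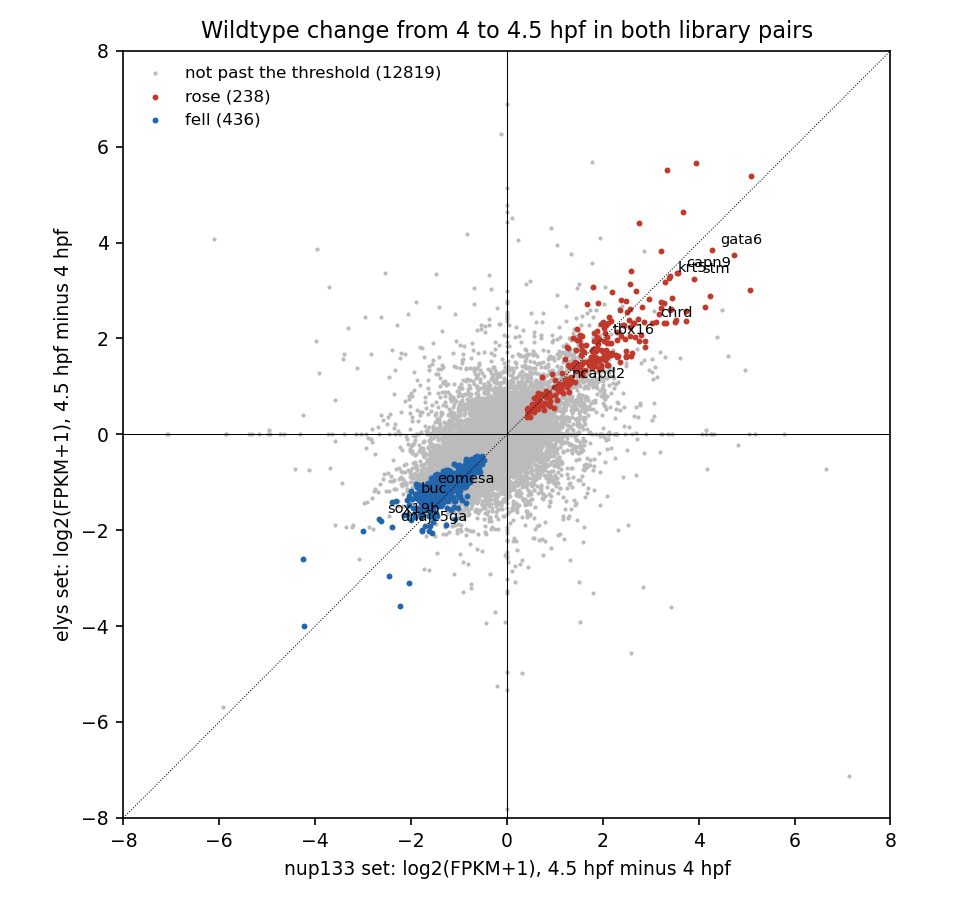
Change of each of the 13493 genes tested from 4 to 4.5 hpf in the elys set pair (vertical axis) against the nup133 set pair (horizontal axis), in log2(FPKM + 1), with 238 genes that rose in red, 436 that fell in blue and the dotted line marking equal change. The called genes lie in the quadrants where both pairs agree in sign, and gata6, krt5, stm and capn9 are among those farthest to the upper right.

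The genes that rose and those that fell had different levels at 3 hpf. Of the 238 genes that rose, 135 (56.7%) averaged below 1 FPKM in the wildtype libraries of 3 hpf, against 1350 of all 13493 genes tested, and 71 (29.8%) were already at 10 FPKM or more. Over the libraries of 3 and 4 hpf, 168 of the 238 average 1 FPKM, against 13065 of all 13493 genes tested. The rest passed the filter of a mean of 1 FPKM through 4.5 hpf, which favours low early levels among the risers. Of the 436 genes that fell, 419 (96.1%) averaged at least 10 FPKM at 3 hpf, against 54.0% of all genes tested, and 3 were below 1 FPKM. A gene of low level cannot fall far on the log2(FPKM + 1) scale, which favours abundant genes among those called lower.

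Keratin genes of the enveloping layer were among the larger rises. Of 17 keratin genes of the list in the table, 6 passed the filter of a mean of 1 FPKM, and these 6 were krt4, krt5, krt8, krt18a.1, krt92 and krt97, each past the threshold as a rise, with a median of 2.76. Only 3 of the 6, krt8, krt18a.1 and krt97, average 1 FPKM over the 10 libraries of 3 and 4 hpf. The other 3, krt4, krt5 and krt92, passed the filter through their level at 4.5 hpf, so a rise was built into their selection. The other 11 stayed at or below 2.48 FPKM in the 4 libraries. The intermediate filament gene krt5 (ENSDARG00000058371) had 21.1 and 19.8 FPKM at 4.5 hpf, against 1.13 and 1.18 FPKM at 4 hpf, a difference of 3.32 ± 0.23 (SE). The gene krt92 (ENSDARG00000036834) had 23.6 and 21.5 FPKM at 4.5 hpf, against 0.412 and 2.59 FPKM at 4 hpf (3.39 ± 0.45). Both libraries of 4.5 hpf stood above both of 4 hpf for these genes, and the 4 hpf libraries differed from each other for krt92. The test on these same libraries chose krt5 and krt92, so that separation is not further support. The simple epithelial keratin gene krt8 (ENSDARG00000058358), had 111 and 87.7 FPKM at 4.5 hpf, against 9.57 and 13.7 FPKM at 4 hpf (3.00 ± 0.35).

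Among 35 other enveloping layer genes tested, 4 rose and 0 fell, with a median of 0.13. Of the 4 that rose, 3 average 1 FPKM over the libraries of 3 and 4 hpf. The other, capn9, passed the filter through 4.5 hpf, so a rise was built into its selection. The calpain protease gene capn9 had 12.9 and 10.6 FPKM at 4.5 hpf, against 0.169 and 0.131 FPKM at 4 hpf (3.47 ± 0.23). The tight junction claudin gene cldne was at 219 and 155 FPKM at 4.5 hpf, against 59.3 and 37.2 FPKM at 4 hpf (1.95 ± 0.27). The other 2 were grhl1, a Grainyhead-like transcription factor of epithelia, with 2.01 ± 0.27, and the sulfotransferase gene sult6b1, with 1.83 ± 0.21. The early enveloping layer regulator klf17 was not among them: it had 89.0 and 89.8 FPKM at 4.5 hpf, against 152 and 135 FPKM at 4 hpf. Summed over the 10 markers in the table, enveloping layer levels were 1415 and 1265 FPKM at 4.5 hpf, against 920 and 901 FPKM at 4 hpf. In whole embryos, a change in the number of cells of a type and a change in RNA per cell cannot be told apart.

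The yolk syncytial layer list had 10 tested members, of which 5 rose and 0 fell, with a median of 1.81. Of the 10, 5 average 1 FPKM over the libraries of 3 and 4 hpf, and 1 of those 5 rose; the rest, with gata6, hnf4a and mttp, passed the filter through 4.5 hpf. Its largest change was that of gata6 (ENSDARG00000103589), a GATA factor of yolk syncytium and endoderm, with 23.6 and 16.2 FPKM at 4.5 hpf, against 0.267 and 0.205 FPKM at 4 hpf (4.06 ± 0.26). The nuclear receptor gene hnf4a (ENSDARG00000021494) had 12.6 and 7.38 FPKM at 4.5 hpf, against 0.201 and 0.652 FPKM at 4 hpf (2.92 ± 0.36). Both regulators were near 0 at 4 hpf and well above it in both later libraries. The lipid transfer gene mttp, which loads lipoproteins, had 6.82 and 6.05 FPKM at 4.5 hpf and was listed at 0 in each wildtype library of 4 hpf. An FPKM of exactly 0 can also be a failed estimate. The anion transporter gene slc26a1 rose by 2.35 ± 0.35. In wildtype it was listed at 0 at 3 hpf and had 0.867 and 1.22 FPKM at 4 hpf, so a rise was favoured by its selection too. The gene mxtx1, a homeobox gene of the yolk syncytial layer, was at 52.3 and 56.9 FPKM at 4.5 hpf, against 14.4 and 15.8 FPKM at 4 hpf. The apolipoprotein gene apoeb was the most abundant marker of the layer, at 549 and 511 FPKM at 4.5 hpf, against 183 and 204 FPKM at 4 hpf, without passing the threshold. Of the other 15 members in the table, none exceeded 3.34 FPKM, and apoa1b was listed at 0.

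Endoderm genes moved in the same direction, with 5 of 10 tested members rising, 0 falling and a median of 1.59. Of the 6 that average 1 FPKM before 4.5 hpf, 2 rose, namely mixl1 and the maternal factor gene pou5f3. The others that rose, gata6, gata5 and sox32, passed the filter through 4.5 hpf, so a rise was built into their selection. Besides gata6, the list gave gata5, a related GATA factor, at 13.6 and 8.74 FPKM at 4.5 hpf, against 0.704 and 0.924 FPKM at 4 hpf (2.72 ± 0.30). The endoderm determinant sox32 had 11.2 and 7.003 FPKM at 4.5 hpf, against 1.71 and 0.559 FPKM at 4 hpf (2.27 ± 0.30). Its fellow Sox gene sox17, a later endoderm marker, did not pass the filter on low values. The homeobox gene mixl1, which is on the mesoderm list too, had 47.7 and 37.1 FPKM at 4.5 hpf, against 10.2 and 10.8 FPKM at 4 hpf (1.90 ± 0.27). The GATA genes and sox32 were below 2 FPKM in both 4 hpf libraries, whereas mixl1 was already above 10 FPKM.

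On the mesoderm list 5 of 11 tested members rose and 0 fell, with a median of 1.39. The T-box gene tbx16 (ENSDARG00000007329), which directs mesoderm cell movement, had 199 and 153 FPKM at 4.5 hpf, against 47.8 and 38.7 FPKM at 4 hpf (1.99 ± 0.20). Brachyury, tbxta (ENSDARG00000101576), had 39.8 and 34.5 FPKM at 4.5 hpf, against 8.76 and 9.56 FPKM at 4 hpf (1.91 ± 0.23). The bHLH gene hes6 rose by 1.93 ± 0.31. The gene nnr had 530 and 466 FPKM at 4.5 hpf, against 260 and 298 FPKM at 4 hpf, with an adjusted p of 0.0511. The other 5 that did not pass were osr1 (1.40), vox (1.28), msgn1 (-0.08), her7 (-0.39) and tbx20 (-0.98).

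Signals and their regulators were mixed. Of 15 Nodal pathway genes tested, 1 rose and 1 fell (6.67% each), against 1.76% and 3.23% of all genes tested. The co-receptor gene tdgf1 had 234 and 264 FPKM at 4.5 hpf, against 135 and 147 FPKM at 4 hpf (0.82 ± 0.10), and the receptor-activated effector gene smad2 had 36.2 and 47.2 FPKM at 4.5 hpf, against 76.8 and 87.2 FPKM at 4 hpf (-0.97 ± 0.11). The ligand gene ndr2 and the antagonist gene lft1 differed by 1.41 and 1.37 and missed the threshold, with adjusted p of 0.051 and 0.053. No member of this list other than tdgf1 and smad2 passed.

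A few genes of the dorsal and of the ventral side rose. In the dorsal organizer list 2 of 14 tested genes rose and 0 fell, with a median of 0.64. The BMP antagonist gene chrd (ENSDARG00000006110) had 30.1 and 27.9 FPKM at 4.5 hpf, against 2.81 and 4.79 FPKM at 4 hpf (2.68 ± 0.29), and the notochord regulator noto had 146 and 114 FPKM at 4.5 hpf, against 54.9 and 43.3 FPKM at 4 hpf (1.39 ± 0.16). In the BMP and ventral list 2 of 22 (9.09%) rose and 0 fell, against 1.76% and 3.23% of all genes tested, with a median of 0.50. In both pairs 15 (68.2%) were higher and 5 (22.7%) lower, against 25.5% and 45.5% of all genes. The ligand gene bmp7a (ENSDARG00000018260) had 55.1 and 55.9 FPKM at 4.5 hpf, against 11.9 and 14.2 FPKM at 4 hpf (2.01 ± 0.26), and the ventral repressor gene vent rose by 1.47 ± 0.23. The antagonist gene chrd and the ligand gene bmp7a thus stood higher in both pairs, as 25.5% of all genes did. The test on these same libraries chose them, so their separation of the stages is not further support.

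Of 16 FGF pathway genes, 3 rose and 1 fell. Of the 3 that rose, 2 average 1 FPKM over the libraries of 3 and 4 hpf, and spred2a passed the filter through 4.5 hpf. The ligand gene fgf17 rose by 2.17 ± 0.23, the inhibitor gene spred2a by 1.81 ± 0.25 and the ETS factor gene etv4 by 1.73 ± 0.20. The related ETS gene etv5a ran the other way, with 26.2 and 34.1 FPKM at 4.5 hpf, against 142 and 92.5 FPKM at 4 hpf (-1.90 ± 0.25). Among 23 Wnt genes, notum1a, which inactivates Wnt ligands outside the cell, rose by 2.22 ± 0.34, and axin1, a scaffold of the complex that degrades beta-catenin, fell by 0.80 (± 0.10). Like spred2a, notum1a passed the filter through 4.5 hpf, so a rise was built into the selection of both. None of 22 neuroectoderm genes passed the test. Of 47 genes for adhesion and cell movement, the syndecan gene sdc4 rose by 0.51 ± 0.08, and the membrane linker gene ezrb fell by 0.67 (± 0.11). Calls on the Wnt list (4.35% each way) and on the adhesion list (2.13% each way) compare with 1.76% rising and 3.23% falling among all genes tested.

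**Figure D2:**
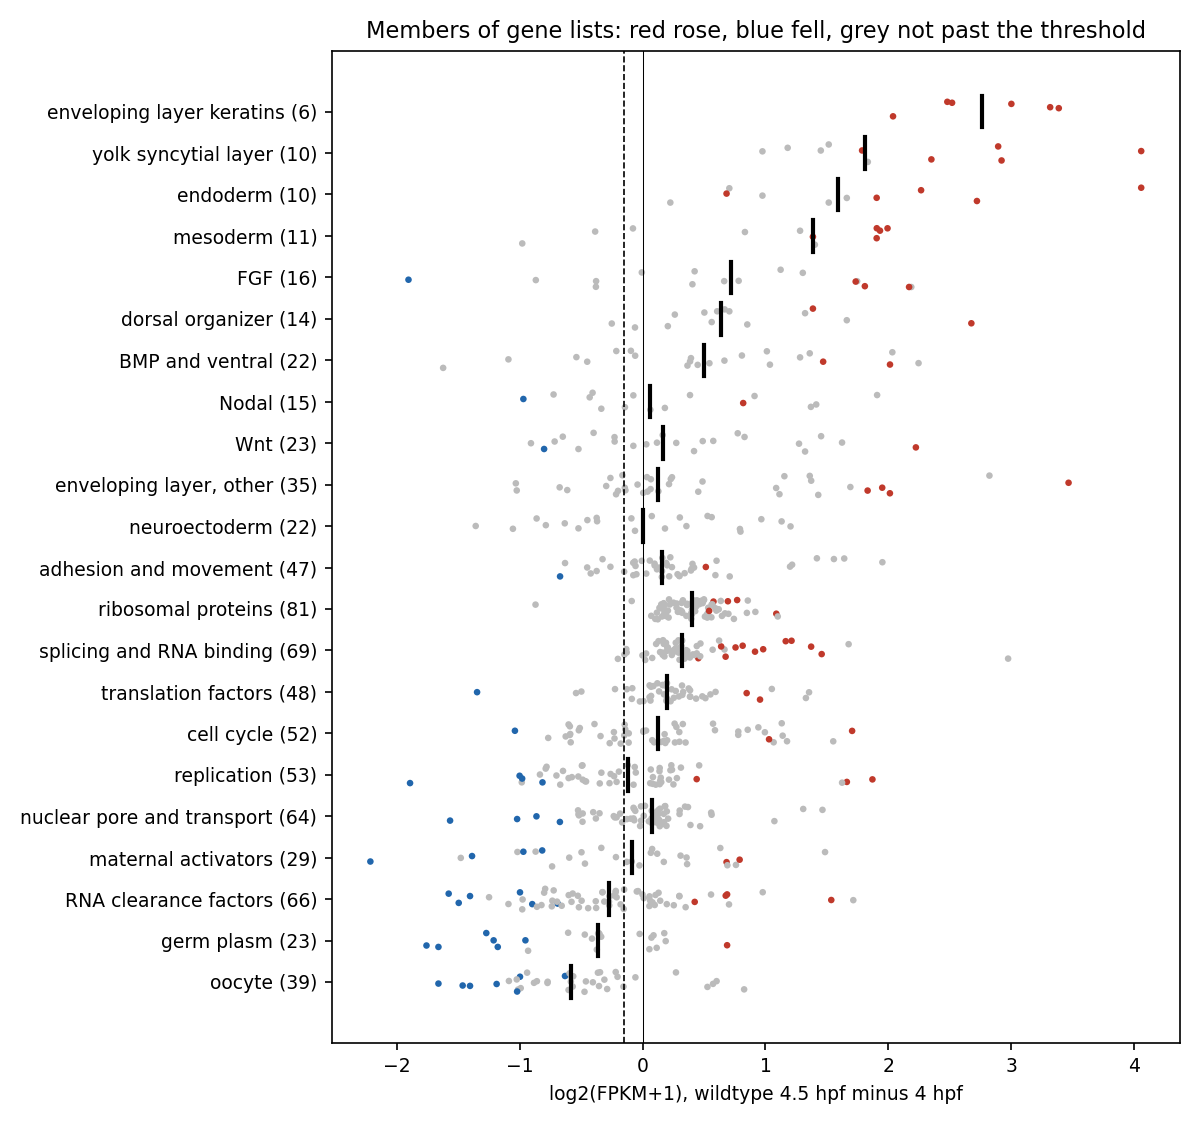
Change in wildtype from 4 to 4.5 hpf, in log2(FPKM + 1), of each tested member (dots, jittered vertically) of 22 gene lists, with the number of tested members in brackets, the list median as a black bar and the median over all genes, -0.15, as a dashed line. The 6 keratins lie farthest to the right and the oocyte and germ plasm lists to the left, with red for genes that rose and blue for genes that fell.

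The listed maternal transcription and chromatin regulators of genome activation did not move as a group. Of 29 tested, 2 (6.90%) rose and 4 (13.8%) fell, against 1.76% and 3.23% of all genes tested. The median was -0.09 as deposited and 0.13 under median-ratio scaling. Pou5f3 (ENSDARG00000044774), a POU factor of genome activation that is on the endoderm list too, had 861 and 815 FPKM at 4.5 hpf, against 527 and 516 FPKM at 4 hpf (0.68 ± 0.07). Nanog, the partner homeobox factor, had 1181 and 1216 FPKM at 4.5 hpf, against 1329 and 1221 FPKM at 4 hpf (-0.09 ± 0.07, adjusted p = 0.452). The third pioneer factor, the SoxB1 gene sox19b (ENSDARG00000040266), had 43.7 and 82.9 FPKM at 4.5 hpf, against 282 and 284 FPKM at 4 hpf (-2.21 ± 0.26). So pou5f3 was higher in both later libraries, sox19b was lower in both, and nanog was lower by an amount close to its SE. A related SoxB1 gene, sox3, had 130 and 98.5 FPKM at 4.5 hpf, against 136 and 107 FPKM at 4 hpf.

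Other members that fell were eomesa (ENSDARG00000006640), a maternal T-box gene, with 56.6 and 62.0 FPKM at 4.5 hpf, against 177 and 139 FPKM at 4 hpf (-1.39 ± 0.13), smad2, and the maintenance DNA methyltransferase gene dnmt1, with 32.2 and 46.7 FPKM at 4.5 hpf, against 56.0 and 84.9 FPKM at 4 hpf (-0.82 ± 0.09). The chromatin architectural gene hmga1a rose to 2468 and 2243 FPKM at 4.5 hpf, against 1450 and 1276 FPKM at 4 hpf (0.79 ± 0.07). Among those that did not pass, the acetyltransferase genes ep300b (-0.74) and crebbpa (-1.48), and the zinc finger gene yy1a (1.48), had adjusted p of 0.0501, 0.0501 and 0.0536. Differences of the remaining members ranged from -1.02 for tbpl2, an oocyte form of the TATA-binding protein, to 0.76 for vgll4l, a Vestigial-like cofactor. In wildtype at 3 hpf vgll4l had 0.488 and 0 FPKM, so its RNA was nearly absent at that stage although it is listed as maternal.

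Oocyte and germ plasm genes were lower. Of 39 oocyte genes tested, 7 fell and 0 rose, with a median of -0.58, and 30 were lower in both pairs (45.5% of all genes were). The germ plasm organizer buc (ENSDARG00000096095) had 23.8 and 39.8 FPKM at 4.5 hpf, against 96.3 and 103 FPKM at 4 hpf (-1.66 ± 0.22). The RNA-binding translation regulator gene cpeb1b fell by 1.46 (± 0.23), and lsm14b, which binds stored RNA, by 1.19 (± 0.09). In the germ plasm list 6 of 23 tested fell and 1, the RNA-binding gene ybx1, rose. The Tudor-domain genes tdrd1 and tdrd6 fell by 1.76 (± 0.22) and 1.21 (± 0.17). The germ cell marker nanos3 had 37.1 and 48.8 FPKM at 4.5 hpf, against 39.2 and 77.9 FPKM at 4 hpf, and ddx4, the germ cell helicase vasa, 206 and 190 FPKM at 4.5 hpf, against 180 and 197 FPKM at 4 hpf. Neither of these 2 passed, and the fall in the list is not a fall of all its members.

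Of 66 RNA clearance factors, 6 (9.09%) fell and 4 (6.06%) rose, against 3.23% and 1.76% of all genes tested, and most passed in neither direction. In both pairs 39 (59.1%) were lower and 18 (27.3%) higher, against 45.5% and 25.5% of all genes. Those that fell were btg4, an adaptor that recruits deadenylases to maternal RNA, with 16.3 and 25.3 FPKM at 4.5 hpf, against 43.3 and 70.8 FPKM at 4 hpf (-1.40 ± 0.16), lsm1, a decapping activator (-1.58), the Argonaute gene ago1 (-1.50), the zinc finger gene cth1, the helicase gene ddx6 (-0.90) and btg3 (-0.69). The 4 that rose were the RNA-binding genes igf2bp1 (1.54), ybx1 (0.69), khdrbs1a (0.68) and elavl1a (0.42). Of these, igf2bp1 and elavl1a are known for stabilizing RNA.

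**Figure D3:**
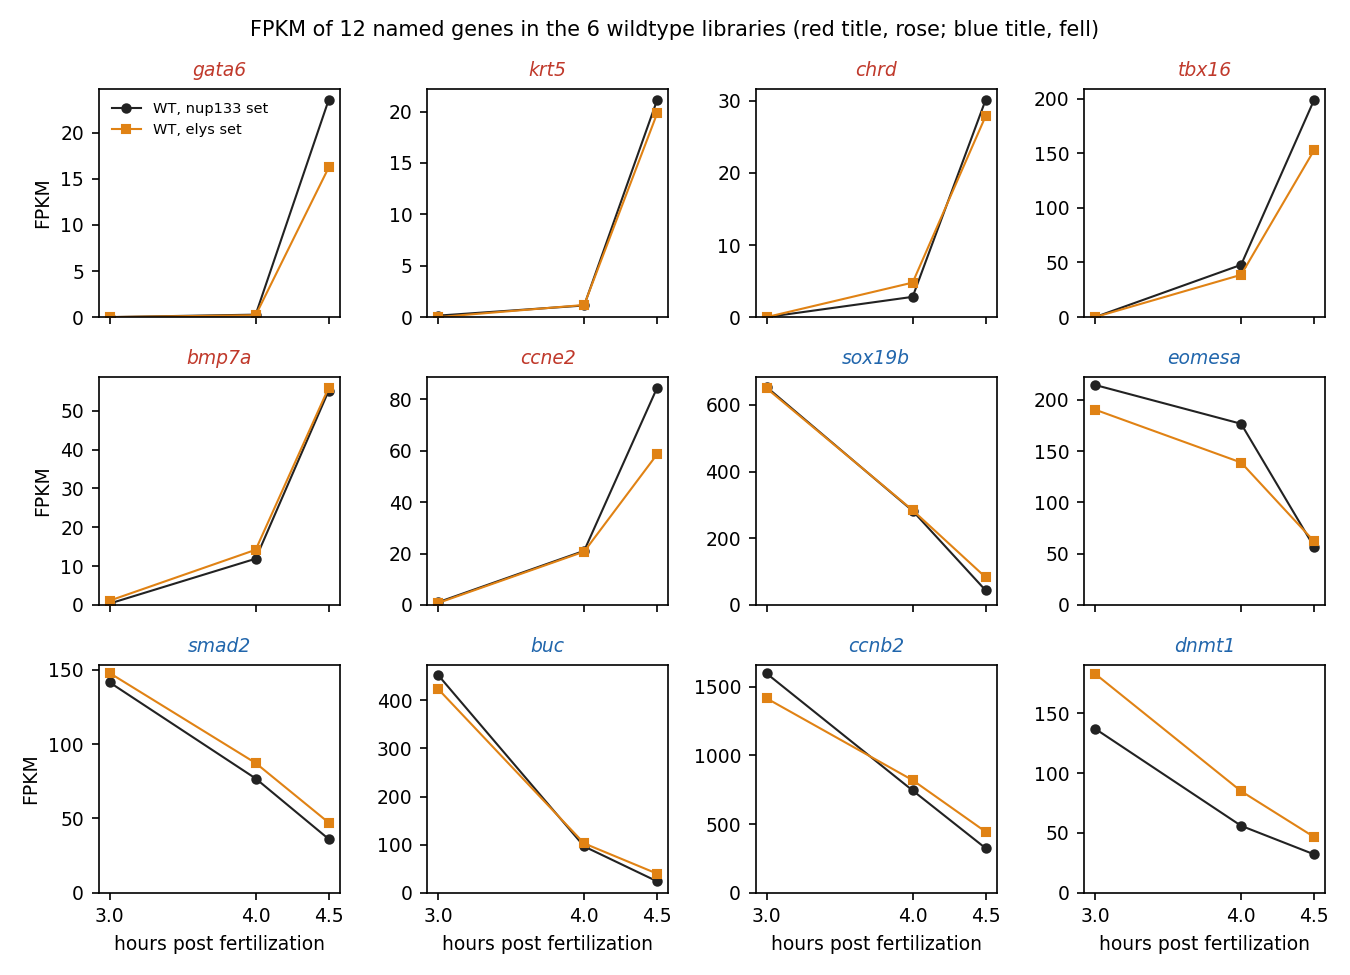
FPKM of 12 named genes in the 6 wildtype libraries at 3, 4 and 4.5 hpf, with the nup133 set in black and the elys set in orange. Genes with red titles rose and genes with blue titles fell between 4 and 4.5 hpf; gata6, krt5 and chrd stayed low until 4 hpf, whereas sox19b and buc were already declining from 3 hpf.

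Among cell cycle regulators, calls were few, with 2 of 52 rising and 1 falling, as among all genes tested (1.76% rose and 3.23% fell). Cyclin E2, ccne2 (ENSDARG00000098529), which drives S phase entry, had 84.5 and 58.6 FPKM at 4.5 hpf, against 21.1 and 20.7 FPKM at 4 hpf (1.70 ± 0.20), and e2f8, a repressor of E2F targets, had 59.5 and 60.3 FPKM at 4.5 hpf, against 26.9 and 30.9 FPKM at 4 hpf (1.03 ± 0.12). The mitotic cyclin gene ccnb2 had 325 and 445 FPKM at 4.5 hpf, against 745 and 820 FPKM at 4 hpf (-1.04 ± 0.16). Of 53 replication genes, 3 (5.66%) rose and 4 (7.55%) fell, and their median changed sign with the scaling (-0.12 as deposited, 0.10 under median ratios). The helicase subunit genes mcm6 and mcm3 rose by 1.87 ± 0.23 and 1.66 ± 0.25, and pcna, the sliding clamp, by 0.44. The clamp loader gene rfc1 fell by 1.89 (± 0.16), recql4, a helicase gene, by 0.98 and tyms, the thymidylate synthase gene, by 0.81, and the origin recognition gene orc3 fell too. The condensin subunit gene ncapd2 (ENSDARG00000005058) had 102 and 93.4 FPKM at 4.5 hpf, against 44.8 and 44.5 FPKM at 4 hpf (1.11 ± 0.08).

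Most RNA processing and ribosomal protein genes were higher by small amounts. Of 69 splicing and RNA-binding genes, 11 rose and 0 fell, with a median of 0.32, and 57 were higher in both pairs (25.5% of all genes were). The serine and arginine rich splicing factor gene srsf5a had 726 and 631 FPKM at 4.5 hpf, against 296 and 307 FPKM at 4 hpf (1.16 ± 0.11), and the snRNP core gene snrpd2 had 47.7 and 47.4 FPKM at 4.5 hpf, against 17.3 and 16.1 FPKM at 4 hpf (1.46 ± 0.13). Of 81 ribosomal protein genes, 5 rose and 0 fell, with a median of 0.40, which was 0.62 under median-ratio scaling, and 74 were higher in both pairs. For rpl13a the levels were 224 and 174 FPKM at 4.5 hpf, against 149 and 117 FPKM at 4 hpf (0.58 ± 0.07). Of 48 translation factors, 2 (4.17%) rose and 1 (2.08%) fell, against 1.76% and 3.23% of all genes tested. In both pairs 34 (70.8%) were higher and 5 (10.4%) lower, against 25.5% and 45.5% of all genes. The genes eef1a1l1, an elongation factor, and eif3f, an initiation factor subunit, rose by 0.85 and 0.96, and eif4ebp2, an inhibitor of initiation, fell by 1.35 (± 0.07).

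In the nuclear pore and transport list, which holds the proteins the other lines alter, 0 of 64 tested genes rose, against 1.76% of all genes tested. With a median of 0.08, 4 (6.25%) fell, against 3.23% of all genes. These were the exportin gene xpo6 (-1.57 ± 0.20), the maternal importin gene kpna7 (-1.02 ± 0.13), the pore scaffold gene nup35 (-0.86 ± 0.14) and the importin gene ipo7 (-0.67 ± 0.10). Stress genes gave 1 rise and 1 fall among 25 tested (4% each). The small heat shock protein gene hspb1 had 643 and 575 FPKM at 4.5 hpf, against 174 and 190 FPKM at 4 hpf (1.74 ± 0.13), and the chaperone gene hspa5 fell by 0.82 (± 0.10).

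Housekeeping, p53, interferon and histone lists gave few calls, as did all genes tested (1.76% rose and 3.23% fell). Of 43 proteasome genes and 86 nuclear oxidative phosphorylation genes, none passed in either direction, and 13 mitochondrially encoded genes gave none either. Among 73 mitochondrial ribosomal protein genes mrpl12 and mrps30 fell, by 1.15 and 0.70. Of 31 p53 and apoptosis genes only mdm4, a p53 inhibitor gene, fell (-1.42 ± 0.21), and of 9 tested interferon genes none passed in either direction. The histone variant gene h3f3b.1 rose by 0.68 ± 0.09, alone among the 21 tested genes of the histone list. The histone gene hist1h4l, which is not on that list, passed as a rise too.

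Outside the lists, the largest rises included stm, which encodes the otolith matrix protein Starmaker and had 179 and 142 FPKM at 4.5 hpf, against 11.0 and 14.2 FPKM at 4 hpf (3.57 ± 0.27). The adhesion gene alcamb had 39.0 and 29.6 FPKM at 4.5 hpf, against 3.29 and 1.16 FPKM at 4 hpf (3.52 ± 0.33). The actin-binding gene tagln2 had 13.3 and 19.7 FPKM at 4.5 hpf, against 0.214 and 1.02 FPKM at 4 hpf (3.46 ± 0.29). In wildtype tagln2 was listed at 0 at 3 hpf, so a rise was favoured by its selection. The G protein alpha subunit gene gna15.1 had 32.8 and 23.8 FPKM at 4.5 hpf, against 1.65 and 0 FPKM at 4 hpf (4.15 ± 0.45). Of the 14 largest rises, 5 had no value above 0 in the wildtype libraries of 4 hpf, so no size is given for them. These were tmx3b, CU929115.1, CR788281.2, hist1h4l and znf1146. All of these but znf1146 were above 0 at 4 hpf in some other line, and their steps there differed in sign. The step of tmx3b was -0.72 in Tgnup133, 5.05 in MZnup133 and -1.49 in Melys. That of CU929115.1 was -0.37 in Tgnup133 and 3.25 in Melys, and that of hist1h4l -2.63 and 4.44. For CR788281.2 it was -0.64 in Melys and positive in the other lines. In wildtype tmx3b had 32.9 and 40.7 FPKM at 4.5 hpf but also 34.1 and 7.55 FPKM at 3 hpf. The largest falls included dnajc5ga, a J-domain co-chaperone gene, with 8.35 and 17.3 FPKM at 4.5 hpf, against 48.4 and 68.9 FPKM at 4 hpf (-2.17 ± 0.20), and adipor1a, an adiponectin receptor gene, with 8.15 and 9.03 FPKM at 4.5 hpf, against 33.6 and 32.3 FPKM at 4 hpf (-1.82 ± 0.15).

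The step from 3 to 4 hpf gave 487 genes higher (3.61%) and 450 lower (3.34%). It shares the 4 hpf libraries with the step described here, so their sizes are set side by side. A contrast of the 2 steps called 53 genes, of which 52 (0.385%) changed less positively in the later step and 1 (0.00741%), ncapd2, more. The gene ncapd2 went through 123 and 112 FPKM at 3 hpf, 44.8 and 44.5 at 4 hpf and 102 and 93.4 at 4.5 hpf. Among the 52, nnr had 0.702 and 0.814 FPKM at 3 hpf, 260 and 298 at 4 hpf and 530 and 466 at 4.5 hpf, and znf1004 had 0.791 and 0.956 at 3 hpf, 270 and 249 at 4 hpf and 377 and 338 at 4.5 hpf. All 52 were higher at 4 hpf than at 3 hpf, and their later step was positive for 37 and negative for 15, with 16 past the threshold as rises and 1 as a fall. The fall was CU468826.1, listed at 0 at 3 hpf, at 17.9 and 15.1 FPKM at 4 hpf and listed at 0 again at 4.5 hpf. The gene CU570769.2, listed at 0 at 3 hpf, had 66.7 and 72.5 FPKM at 4 hpf and 42.1 and 41.5 FPKM at 4.5 hpf, without passing as a fall.

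Most genes called in wildtype moved the same way in the other lines. Those lines did not enter the wildtype difference, but their libraries counted in the filter of a mean of 1 FPKM. Of the 238 that rose, 168 average 1 FPKM over the libraries of 3 and 4 hpf, and the rest passed through 4.5 hpf. For that rest a rise in those lines was favoured by the selection, so the agreement is not wholly separate support. Among the 238 genes that rose in wildtype, 163 (68.5%) were higher at 4.5 hpf in Tgnup133, MZnup133 and Melys alike, against 16.6% of all genes, and of the 436 that fell, 393 (90.1%) were lower in all 3, against 29.0%. The median step of the risers was 1.83 and 1.63 in the wildtype pairs, 1.30 in Tgnup133, 0.51 in MZnup133 and 0.62 in Melys. For the fallers it was -1.23 and -1.04 in wildtype, -1.14 in Tgnup133, -0.44 in MZnup133 and -0.68 in Melys. The wildtype values chose these genes, so larger wildtype medians are a description. With 1 library per stage and line, a test of the wildtype step minus the mean step of the others called 0 genes. Of the 13493 genes, 501 had an unadjusted p of at most 0.05 in limma in that test, against 4093 for the wildtype step itself. The other lines alone gave 0 calls with 2748 at that level.

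Keratin and yolk syncytial layer genes had smaller steps in MZnup133 and Melys. Over the 6 keratins the median step was 3.00 and 2.57 in the wildtype pairs, 2.82 in Tgnup133, 0.83 in MZnup133 and 0.72 in Melys, and over the 10 yolk syncytial layer genes it was 1.85 and 1.80 in wildtype, 1.86 in Tgnup133, 0.52 in MZnup133 and 0.91 in Melys. For mesoderm the steps were 1.41 and 1.37 in wildtype, 1.54 in Tgnup133, 1.34 in MZnup133 and 0.48 in Melys. These medians were not tested against each other. Only 3 of the 6 keratins and 5 of the 10 yolk syncytial layer genes average 1 FPKM over the libraries of 3 and 4 hpf, while all 11 mesoderm genes do. The rest passed the filter through the 4.5 hpf libraries where they were high. For krt5, krt92, gata6, hnf4a and mttp those were the wildtype and Tgnup133 libraries. Larger steps in wildtype and Tgnup133 than in MZnup133 and Melys were thus built into the selection of such genes. The smaller keratin and yolk syncytial layer medians of MZnup133 and Melys are therefore a description only.

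**Figure D4:**
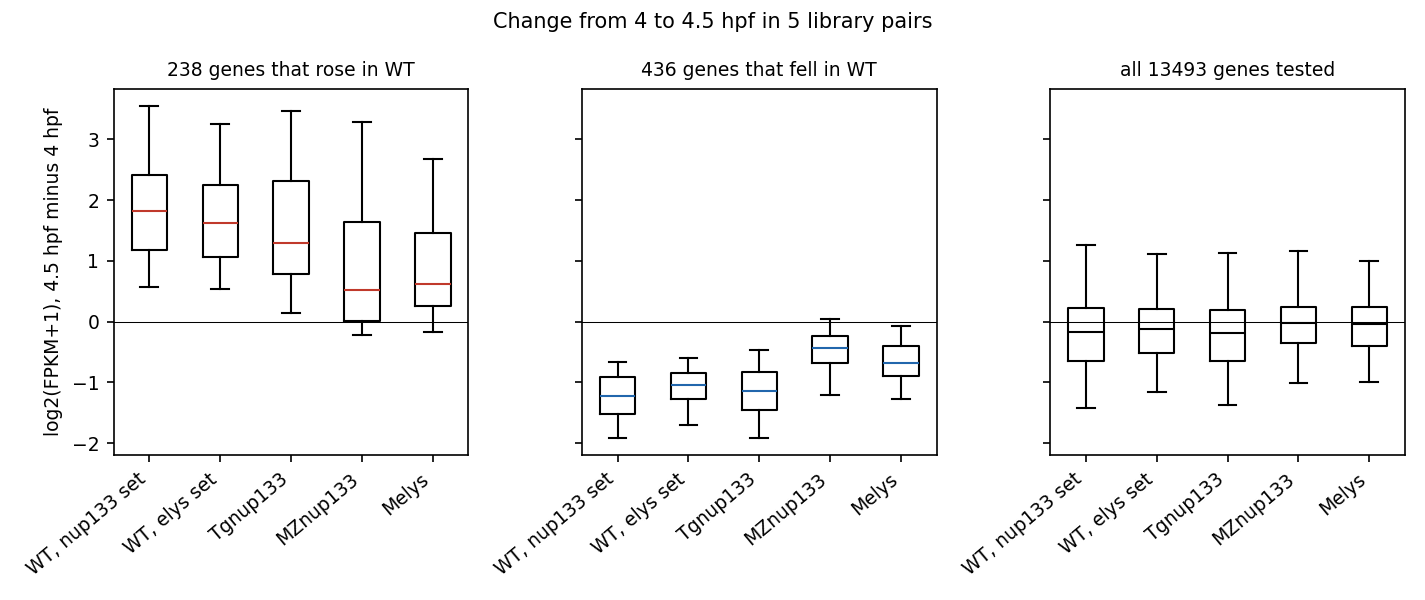
Change from 4 to 4.5 hpf, in log2(FPKM + 1), in 5 library pairs, for the 238 genes that rose in wildtype, the 436 that fell and all 13493 genes tested; boxes span the quartiles, the inner line is the median and whiskers reach the 5th and 95th percentiles. For the genes that rose, the median of Tgnup133 (1.30) lies between those of the wildtype pairs (1.83 and 1.63) and those of MZnup133 (0.51) and Melys (0.62).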

How the data were processed

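Poly(A) RNA of dechorionated whole embryos was sequenced, per the labels. The authors deposited an FPKM value for each gene in each library. STAR 2.5.3a, Cufflinks 2.2.1, Trim Galore and build GRCz11 are named in the submitters' processing notes, with neither order nor options. Of 23800 lines, 74 repeats were dropped, which left 23726 genes, and 64 of 71 missing symbols were filled from the reference gene table. Counts were not used, so depth is unknown. Reads shared between near-identical genes may have been split upstream.

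The 13493 genes averaging 1 FPKM or more across the 15 libraries were fitted in R 4.3.3 (limma 3.58.1) after log2(FPKM + 1): 12 genotype-by-stage means, a control set term, variance trend, two-sided tests and Benjamini-Hochberg adjustment over all genes, at 0.05. Residual degrees of freedom were 2 and prior ones 2.36. The residual spread came from the 2 wildtype libraries at each of 3, 4 and 4.5 hpf. Lone libraries were assumed to vary like wildtype ones. Wildtype columns carry no set name; the set was read from the number each shares with the mutant columns. Same-set libraries deviated together (correlations of 0.254, 0.185 and 0.213 over genes), so the set was kept as a pairing term.

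The 31 lists, the members and the rule for named genes were chosen with earlier results of these data known. The rule took the 14 largest rises and falls past the threshold with at least 10 FPKM and the same direction in both pairs. It added up to 4 called members per list or otherwise 2, and all tested members of the genome activation list. It also took nup133 and ahctf1, and 5 genes each way in the contrast of steps. Others named were chosen after their values were seen. Of the listed symbols, 6 were matched by synonym. After the values were seen, ndr3 and rdx were taken off their lists (Nodal, adhesion and movement), because their synonyms had matched other genes, ndrg3a and msna. Alternatives changed the pseudocount, filter, scaling, variance trend, pairing and libraries used.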

Additional observations from a re-analysis of the deposited data

Results flagged for a closer look

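The genes ncapd2 and si:dkeyp-20e4.8, both called in wildtype, moved one way in both wildtype pairs and the opposite way in both MZnup133 and the libraries labelled Melys. Setting wildtype against these 2 lines was chosen after the values were seen. The pattern is not particular to these genes: CU570769.2, foxh1, nanog and kdm1a had it too, without passing the wildtype test. How many of all genes tested had it was not counted. In Tgnup133 the step had the wildtype direction, at 0.63 for ncapd2 and -1.92 for si:dkeyp-20e4.8. The condensin gene ncapd2 had 102 and 93.4 FPKM at 4.5 hpf and 44.8 and 44.5 FPKM at 4 hpf in wildtype, against 60.7 FPKM at 4.5 hpf and 87.9 at 4 hpf in MZnup133 and 45.8 at 4.5 hpf and 62.4 at 4 hpf in Melys. Its wildtype step minus the mean step of MZnup133 and Melys was 1.59 ± 0.14 (SE, log2), with an adjusted p of 0.395 in limma. The gene si:dkeyp-20e4.8 was listed at 0 at 4.5 hpf and had 18.1 and 5.11 FPKM at 4 hpf in wildtype, against 43.8 FPKM at 4.5 hpf and 13.8 at 4 hpf in MZnup133 and 9.02 at 4.5 hpf and 0 at 4 hpf in Melys; the difference of steps was -5.90 ± 0.83 with an adjusted p of 0.443, and it depends on the pseudocount. Neither difference passed the threshold.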

How the results depend on the processing

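The 674 calls of the wildtype step depended on the settings. Their number was 0 with a pseudocount of 0.1, 0 with no filter, 0 with no variance trend and 0 when only the 4 wildtype libraries of both stages entered the fit. It was 1580 with a filter of 5 FPKM and 1627 with the filter over the 6 wildtype libraries. Median-ratio scaling gave 650, of which 489 were shared with the 674, and equal FPKM sums gave 741, sharing 659. Without the replicate block it was 353, sharing 341. Leaving out each wildtype library gave 0 every time with the block, and leaving out each of the 4 libraries of 4 and 4.5 hpf gave 0 to 9 without it. All 5 pairs of any line gave 3098, sharing 587 with the same sign, and 1 effect per line gave 465, sharing 167 and calling 17 of the 98 named genes. These 5-pair and per-line fits and the unpaired ones without a library were chosen after seeing the data. None of the 98 named genes past the threshold reversed direction under any alternative.

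The 53 calls of the contrast of steps became 0 with no filter, 0 with no variance trend, 125 with a filter of 5 FPKM, 78 without the replicate block and 0 without each library in turn. The step of the other lines had 0 calls and 14 with a filter of 5 FPKM. The wildtype step minus that of the other lines had 0 in every alternative run. The cause of these shifts was not tested. The depth that limits low genes is unknown.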
